A study of Homo sapiens with 15 samples.

Results

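The RNA of MOLM-14 cells at rest was described from the 2 libraries of vehicle-treated cells, out of 15 samples in the series, of which 8 were RNA libraries. The libraries were taken by their labels, and no measured value entered the choice. MOLM-14 is an established human acute myeloid leukemia (AML) line that carries the MLL-AF9 fusion, and the vehicle cells received DMSO alone for 6 h. The remaining RNA libraries came from the same line, 2 each after 10 uM DHE for 6 h, or 6 h after electroporation with 100 nM NR4A1 RNA or GFP RNA. They were not used here, and no contrast was made. The vehicle libraries were labelled as replicates 1 and 2 of 1 line, with nothing to say whether they came from separate cultures, so their spread may be technical.

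MLL-AF9 joins the N-terminal part of MLL (gene KMT2A), a histone methyltransferase, to AF9 (gene MLLT3), a member of complexes that promote transcription elongation. Leukemias with this fusion typically have monocytic features and keep up HOXA genes together with MEIS1, genes of blood stem and progenitor cells. Monocytes and granulocytes share a myeloid precursor, which makes the enzymes of the primary (azurophil) granules before the later lineages are set.

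Levels are given in TPM, each transcript's share of the library corrected for its length, with the value of replicate 1 before that of replicate 2. A gene was called on at 1 TPM or more in both libraries, off below 0.1 TPM in both, and low otherwise. Of 57964 entries in the table, 12364 (21.3%) were on and 27466 stood at 0 in both libraries. Of 19014 protein-coding genes, 10198 (53.6%) were on, 2595 were low and 6221 (32.7%) were off. Among the protein-coding genes, 5838 reached 10 TPM in both libraries and 647 reached 100 TPM, and the genes that were on had a median of 13 TPM. Over 12256 genes of at least 1 TPM in both libraries, log2(TPM + 0.5) had a Pearson correlation of 0.992 across genes, given as a description since genes are not independent replicates. The median absolute difference between the libraries was 0.08 on this log2 scale, and 353 of the genes (2.88%) differed by more than 1.5-fold.

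Short structural RNAs made by RNA polymerase III held the largest share of the TPM. They took 34.2% of the TPM in replicate 1 and 35.1% in replicate 2, spread over 77 entries, of which 21 were on. The 77 cytosolic ribosomal protein genes took 17.7% and 17.2%, and replication-dependent histone genes took 4.00% and 3.88%. All other nuclear protein-coding genes together took 33.6% and 32.8%, and snoRNAs and scaRNAs, which guide the modification of other RNAs, took 4.38% and 5.06%. Mitochondrial mRNAs took 0.316% and 0.297%. The libraries were depleted of ribosomal RNA and were not selected for poly(A) tails, and cytosolic ribosomal RNA took 0.897% and 0.578%.

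**Figure D1:**
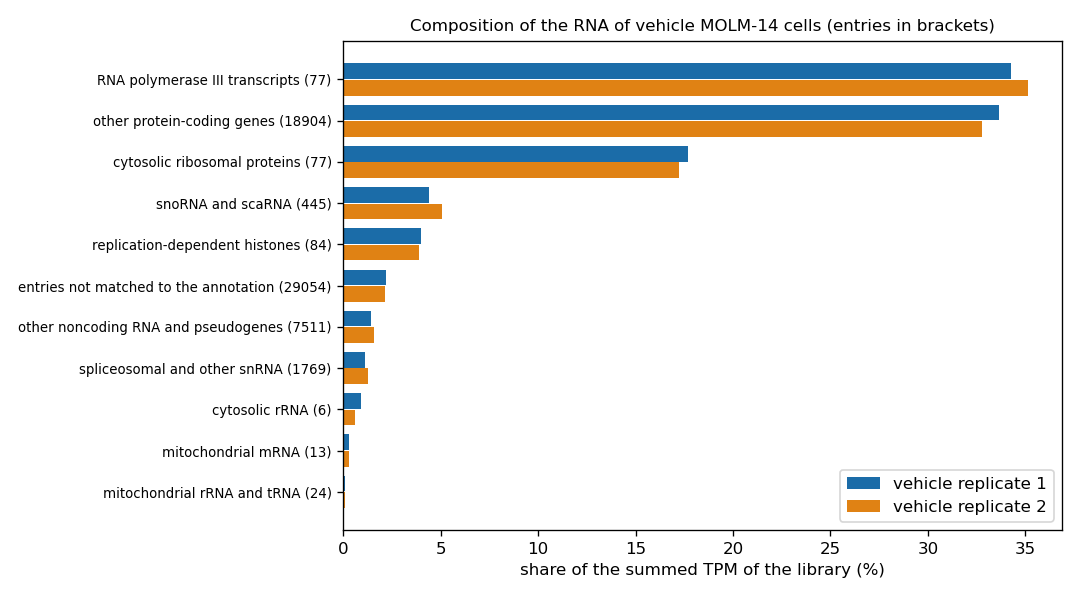
Share of the summed TPM (x axis, %) held by each class of RNA (y axis, with the number of entries in brackets) in vehicle replicates 1 and 2. RNA polymerase III transcripts took 34.2% and 35.1%, cytosolic ribosomal proteins 17.7% and 17.2%, and mitochondrial mRNAs 0.316% and 0.297%.

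The distribution was steep: 43 entries held 50% of the TPM, and the 5 most abundant held 33.7%. RN7SK, the RNA that holds the elongation factor P-TEFb inactive, was the most abundant entry at 116383 and 116462 TPM. RN7SL1, an RNA of the signal recognition particle that directs secreted proteins to the endoplasmic reticulum, had 102014 and 107495 TPM, and its near-identical copy RN7SL2 had 56382 and 58528 TPM. These copies share sequence, so the split between them is uncertain. RPPH1, the RNA of the tRNA-processing enzyme RNase P, had 36967 and 37469 TPM. RMRP, the RNA of the related RNase MRP, stood in the table as separate entries of 20429 and 21112 TPM and of 6662 and 6503 TPM. Next came SNORD3A, the U3 snoRNA of ribosomal RNA processing, which had 18203 and 22714 TPM. Many of these RNAs are about as short as a library fragment, where the length correction in TPM is least certain, so their levels relative to mRNAs are uncertain too. RNU1-1, the U1 RNA of the spliceosome, was measured at 3901 and 4135 TPM, and the snoRNAs SNORA73A and SNORA73B at 3666 and 4041 TPM and at 3072 and 3644 TPM.

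Among mRNAs the products of the translation machinery led. EEF1A1, the factor that brings aminoacyl-tRNA to the ribosome, had 14476 and 14507 TPM, more than 2 times the level of any other protein-coding gene. Ribosomal protein genes made up 26 of the 30 most abundant protein-coding genes. The highest of them were RPS18 at 7088 and 6931 TPM, RPS27 at 5981 and 5920 TPM, RPL41 at 4660 and 4536 TPM and RPS24 at 4277 and 4226 TPM. All 77 were on, and the lowest was RPS26 at 334 and 333 TPM. Outside the ribosome, TPT1, the translationally controlled tumor protein, had 3316 and 3395 TPM. GAPDH of glycolysis was measured at 2777 and 2700 TPM, RACK1, a scaffold on the small ribosomal subunit, at 2191 and 2166 TPM, and NPM1, the nucleolar protein nucleophosmin, at 2044 and 2024 TPM. ACTB, cytoplasmic actin, had 1961 and 1882 TPM. In all, 153 genes held 50% of the protein-coding TPM.

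Messenger RNAs of the translation machinery are known for a 5′ terminal oligopyrimidine tract, a C at the first base followed by C and T bases, through which their translation answers to mTOR. The starts of the abundant genes in RefSeq were therefore read on the gene's strand, and a start run was counted where the first base was a C followed by at least 4 C or T bases. Each line shows 10 bases before the annotated start and 20 from it, 5′ to 3′ (GRCh38.p14), with the start run in capitals. The first 8 genes have one, and the last 5, set beside them because they are abundant or mark this line, do not. Not every ribosomal protein gene has a run at the first start listed for it. RPL10 (2394 and 2334 TPM) and RPL6 (2656 and 2631 TPM), which are not shown, have none there. Whether either has a run at another listed start is not reported here.
EEF1A1 (chr6:73521013-73521042, minus strand): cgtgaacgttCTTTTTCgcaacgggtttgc
RPS18 (chr6:33272065-33272094, plus strand): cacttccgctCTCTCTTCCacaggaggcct
RPS27 (chr1:153990752-153990781, plus strand): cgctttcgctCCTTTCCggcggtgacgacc
RPL41 (chr12:56116623-56116652, plus strand): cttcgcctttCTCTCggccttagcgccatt
RPS24 (chr10:78033853-78033882, plus strand): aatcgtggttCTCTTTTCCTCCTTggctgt
TPT1 (chr13:45341164-45341193, minus strand): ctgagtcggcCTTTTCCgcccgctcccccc
NPM1 (chr5:171387839-171387868, plus strand): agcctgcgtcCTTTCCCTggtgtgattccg
EEF2 (chr19:3985444-3985473, minus strand): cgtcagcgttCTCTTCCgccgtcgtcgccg
GAPDH (chr12:6535254-6535283, plus strand): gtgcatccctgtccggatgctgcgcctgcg
HIST1H1B (chr6:27867569-27867598, minus strand): gcatagcagcaacgcaaaacctgctcttta
AZU1 (chr19:827827-827856, plus strand): agccacagacctgccccgccatgacccggc
CEBPA (chr19:33302515-33302544, minus strand): gggccgggccattcgcgacccggaggtgcg
FLT3 (chr13:28100557-28100586, minus strand): agcgcgaggcgcgccgctccaggcggcatc

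Of the 77 ribosomal protein genes, 62 had a promoter in the RefSeq table, and 42 of these (67.7%) had the start run, against 1104 of 27305 genes in the table (4.04%). Among the 100 most abundant protein-coding genes, the 30 outside the ribosome included 25 with a promoter, of which 7 (28.0%) had the run. The share was 447 of 8402 (5.32%) for the other protein-coding genes that were on, and 128 of 4653 (2.75%) for those that were off. The table gives several starts for 5191 of the 27305 genes, and the first one listed stood for each. With a run at any listed start counted, the shares were 46 of 62 ribosomal protein genes (74.2%) and 1404 of 27305 genes (5.14%). An annotated start need not be the one used in MOLM-14 cells, and a match is a description of the letters.

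Histone mRNAs, which lack poly(A) tails and are made in S phase, were prominent in these dividing cells. HIST1H4J (a histone H4 gene) had 3229 and 3161 TPM, and HIST1H3B (histone H3) had 2429 and 2313 TPM. Since many histone genes are close copies of each other, the split between single genes is uncertain. Of the linker histones, which bind DNA between nucleosomes, 7 of 10 were on, beside 53.6% of all protein-coding genes. HIST1H1B had 2181 and 2077 TPM, HIST1H1C 1132 and 1080 TPM, HIST1H1E 1051 and 995 TPM, and HIST1H1D 69.8 and 68.0 TPM. HIST1H1A stood at 2.43 and 2.29 TPM, H1FX at 14.3 and 13.4 TPM and H1F0, which other cells make when they stop dividing, at 1.28 and 1.28 TPM. The testis form HIST1H1T was low at 0.579 and 0.435 TPM, and the germ cell forms H1FOO and H1FNT were off.

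Lineage genes were described from 14 lists with 200 different genes, of which 50 (25%) were on, 40 were low and 110 were off, set against 53.6% of all protein-coding genes on. The lists for precursors of granulocytes and for monocytes had most of their genes on. The stem and progenitor list had 6 of 18 on, and each of the other 11 lists had at most 3. In bulk RNA of this kind, fewer cells of a type and less RNA per cell cannot be told apart.

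**Figure D2:**
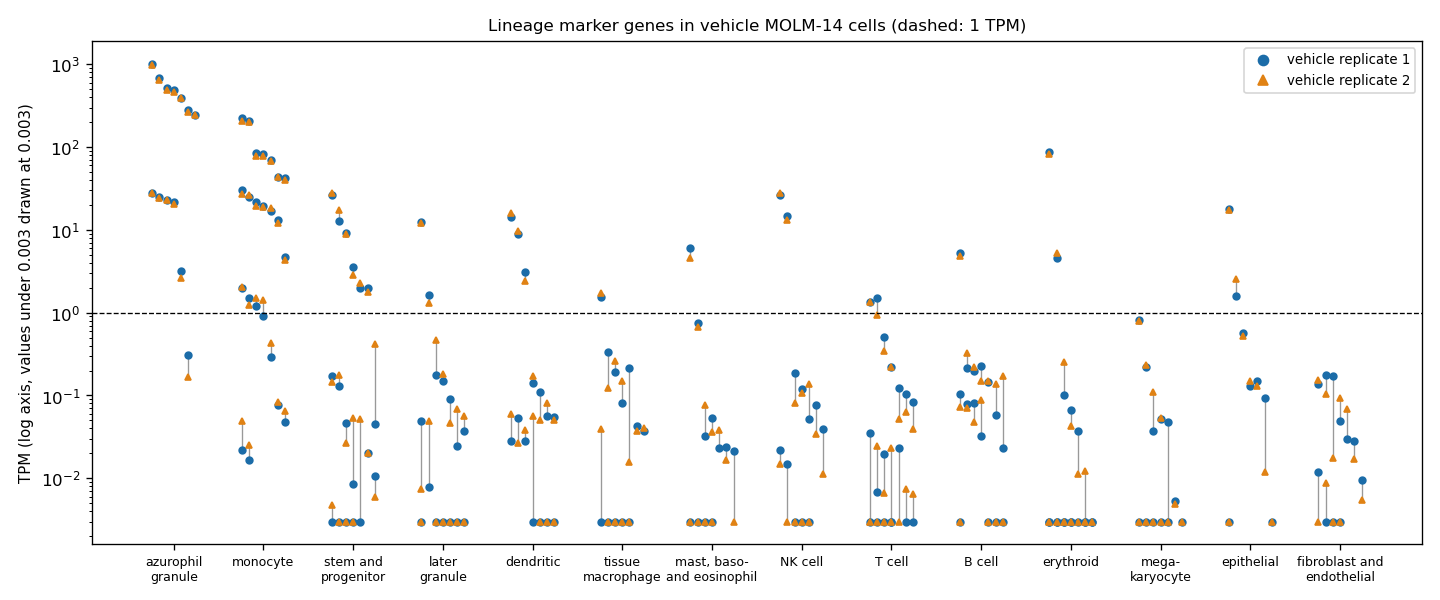
TPM (y axis, log scale) of each marker gene in 14 lineage lists (x axis), with a circle for vehicle replicate 1, a triangle for replicate 2 and a grey line joining them. Values under 0.003 TPM, including 0, are drawn at 0.003. The azurophil granule and monocyte lists hold 12 of 13 and 17 of 23 genes above the dashed line at 1 TPM in both libraries.

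The azurophil granule list had 12 of 13 genes on. SRGN, the proteoglycan that packs granule proteins, led at 1007 and 977 TPM. The serine proteases followed, with neutrophil elastase (ELANE) at 679 and 649 TPM, cathepsin G (CTSG) at 484 and 468 TPM and proteinase 3 (PRTN3) at 392 and 387 TPM. AZU1, an inactive relative of these proteases with antimicrobial activity, had 523 and 494 TPM. The ranges of these 5 genes did not overlap. RNASE2, a granule ribonuclease that eosinophils also make, had 281 and 263 TPM, and its relative RNASE3 had 25.2 and 24.3 TPM. PRSS57, another serine protease of the granule, had 244 and 241 TPM. Myeloperoxidase (MPO), the enzyme by which granulocyte precursors are commonly recognized, was more than 10 times lower than these proteases on the TPM scale, at 21.8 and 20.4 TPM. BPI, a protein that kills Gram-negative bacteria, had 3.16 and 2.61 TPM. Only SERPINB10 was low, at 0.311 and 0.167 TPM.

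Genes of the granules made later in neutrophil development were mostly silent, with 2 of 15 on, 2 low and 11 off. The genes that were on encode receptors: CSF3R, for G-CSF, at 12.5 and 12 TPM, and CXCR2, for chemokines, at 1.62 and 1.32 TPM. Lactoferrin (LTF), the cathelicidin CAMP, lipocalin 2 (LCN2), olfactomedin 4 (OLFM4), CXCR1 and FCGR3B were listed at 0 in both libraries. The cells thus held the mRNAs of primary granules without those of secondary granules at the thresholds used.

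The monocyte list had 17 of 23 genes on. AIF1, an actin-binding protein of monocytes and macrophages, had 226 and 205 TPM, and lysozyme (LYZ) had 207 and 202 TPM, so that these overlapped. PSAP, the precursor of the lysosomal saposins, had 84.0 and 77.3 TPM, CST3 (cystatin C) 82.4 and 78.8 TPM, and CTSS, a protease of antigen presentation, 70.6 and 67.8 TPM. The high-affinity IgG receptor FCGR1A had 43.4 and 43.7 TPM. The calprotectin chains S100A9 and S100A8 had 42.1 and 40.1 TPM and 30.6 and 27.5 TPM, and CD68 had 22.0 and 19.7 TPM. MNDA stood at 13 and 12.2 TPM and the scavenger receptor CD36 at 4.74 and 4.28 TPM.

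Other defining monocyte genes were near or below the threshold. CSF1R, the receptor for M-CSF, had 1.49 and 1.25 TPM. CD14, the co-receptor for lipopolysaccharide that defines classical monocytes, was off at 0.0481 and 0.0655 TPM, and VCAN was off at 0.0757 and 0.0833 TPM. FCN1, a lectin of monocytes, was off as well. The monocytic label was thus met by lysozyme, FCGR1A and the S100 genes, and was not met by CD14, VCAN and FCN1. In the tissue macrophage list 1 of 12 genes was on, TREM2 at 1.55 and 1.71 TPM, and C1QB, C1QC, MRC1 and TIMD4 were listed at 0.

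Of 18 stem and progenitor genes, 6 were on and 9 were off. MEIS1, the homeobox partner of HOXA9, had 26.2 and 28.1 TPM. MSI2, an RNA-binding protein of blood stem cells, had 12.8 and 17.4 TPM, 1 of the larger differences between the libraries for a protein-coding gene. MLLT3 had 9.08 and 8.98 TPM, a value that counts transcripts of the fusion together with those of the intact gene. Of the surface proteins used to sort stem and progenitor cells, CD34 was off at 0.0199 and 0.0203 TPM, PROM1 was off, and KIT was low at 0.174 and 0.145 TPM. CD38, also used to sort them, was on at 1.97 and 2.27 TPM.

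Markers of other lineages were at or near 0, with single exceptions. Of the T cell genes 1 of 18 was on, the adaptor LAT at 1.35 and 1.35 TPM, and of the B cell genes 1 of 15, the factor PAX5 at 5.26 and 4.87 TPM. CD3D, CD3E and CD3G were off, and MS4A1 was listed at 0. The NK cell list had 2 of 12 on. These were NCAM1 (CD56), an adhesion molecule also found on some AML cells, at 26.8 and 27.8 TPM, and NKG7, a granule membrane protein, at 14.8 and 13.1 TPM. KLRF1, GZMA and GZMB of that list were listed at 0. Of the dendritic cell genes 3 of 14 were on, with CADM1 at 14.5 and 15.8 TPM, BATF3 at 9.02 and 9.60 TPM and TCF4 at 3.08 and 2.41 TPM. In the list of mast cells, basophils and eosinophils, PRG2, the eosinophil major basic protein, had 5.97 and 4.58 TPM and was the only 1 of 11 that was on. The eosinophil ribonucleases RNASE2 and RNASE3, both on, were counted in the azurophil list and not in this one.

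No globin was on: 11 of 13 were listed at 0 in both libraries, among them HBA1, HBA2, HBB and HBG1. The erythroid genes that were on, 2 of 18, were the transferrin receptor TFRC at 87.3 and 81.9 TPM, which dividing cells use to take up iron, and EPOR at 4.60 and 5.27 TPM. No megakaryocyte gene was on (0 of 12), and GP9 was the highest of them at 0.811 and 0.798 TPM. Neither were fibroblast and endothelial genes (0 of 11). Of 8 epithelial genes, KRT18 was on at 17.9 and 17.3 TPM with its filament partner KRT8 at 1.58 and 2.57 TPM, while CDH1 was low and EPCAM was off.

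Surface genes were next taken from lists with 204 different genes, of which 84 (41.2%) were on, beside 53.6% of all protein-coding genes. Among 411 genes with a CD number in RefSeq, 161 (39.2%) were on and 156 were off. The highest was BSG (CD147), a partner of lactate transporters, at 225 and 215 TPM. The inhibitory collagen receptor LAIR1 had 136 and 136 TPM, the heparan sulfate proteoglycan SDC2 138 and 133 TPM, and the amino acid transporter chain SLC3A2 (CD98) 105 and 102 TPM. JAG1, a Notch ligand, had 51.9 and 50.9 TPM.

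Of 38 surface genes used to type AML, 27 were on, 7 were low and 4 were off. FLT3, the receptor tyrosine kinase most often mutated in AML, was the highest at 102 and 99.2 TPM. SPN (CD43) had 69.7 and 63.4 TPM, and PTPRC, the pan-leukocyte phosphatase CD45, had 55.3 and 56.0 TPM. The chemokine receptor CXCR4 had 53.6 and 52.3 TPM. CD70, the ligand of CD27, had 41.6 and 41.4 TPM, and CD47, the signal that restrains phagocytosis, had 40.4 and 39.6 TPM. CD4, which monocytes carry as well as T cells, had 40.8 and 37.4 TPM, overlapping CD47. CD33, the myeloid Siglec to which antibody drugs are directed, had 22.6 and 23.7 TPM, and the interleukin-3 receptor chain IL3RA (CD123) had 15.4 and 14.9 TPM.

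Several genes used to recognize myeloid blasts were low. ANPEP (CD13) stood at 0.131 and 0.143 TPM, ITGAX (CD11c) at 0.344 and 0.394 TPM and CD86 at 0.414 and 0.477 TPM. CLEC12A lay on the threshold at 1.19 and 0.921 TPM, and ITGAM (CD11b) just above it at 1.55 and 1.34 TPM. CD7, an antigen of T cells that some AMLs carry, was listed at 0.

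**Figure D3:**
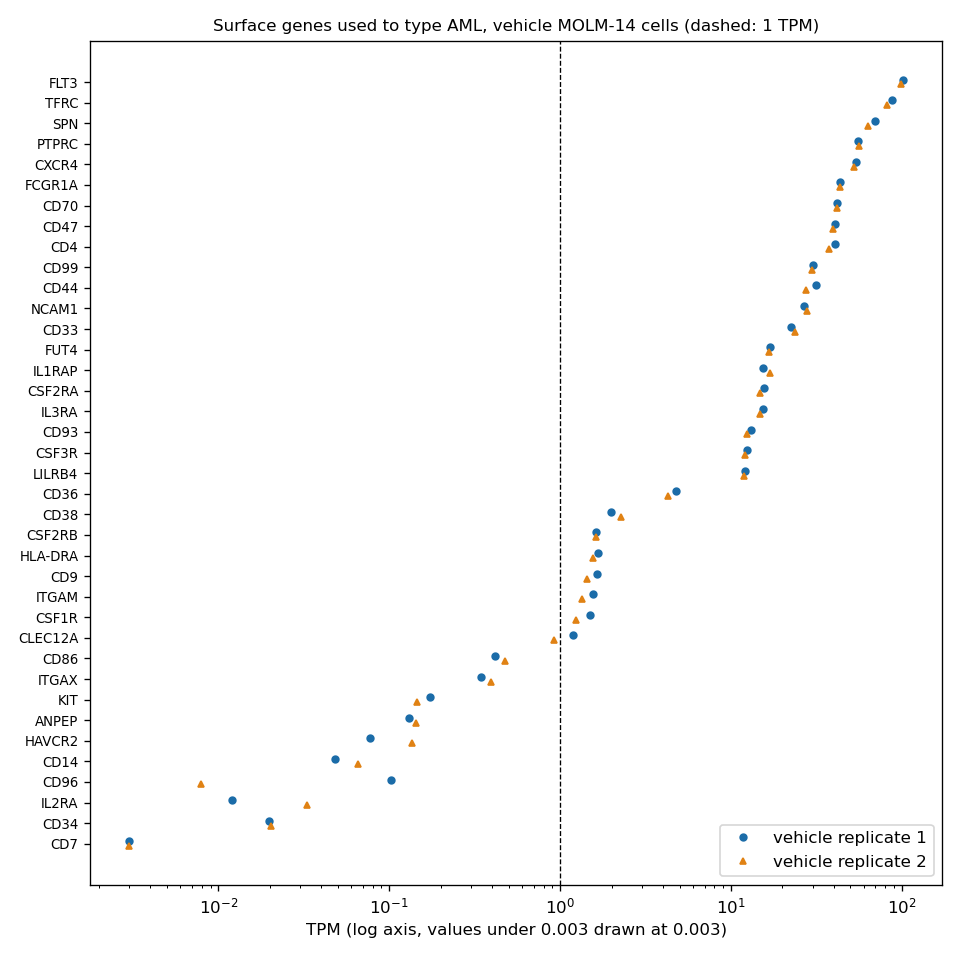
TPM (x axis, log scale) of the 38 surface genes used to type AML (y axis), ordered by mean, with circles for vehicle replicate 1 and triangles for replicate 2. Values under 0.003 TPM, including 0, are drawn at 0.003. FLT3 is at the top with 102 and 99.2 TPM, and 27 genes lie right of the dashed line at 1 TPM in both libraries.

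Surface families differed in how many members were on. Of 58 receptor tyrosine kinases 16 were on, and FLT3 held 36.4% of their summed TPM. The next was RET, the receptor for the GDNF family, at 59.0 and 54.6 TPM, followed by FGFR1 at 37.7 and 34.4 TPM and the insulin receptor INSR at 19.8 and 19.4 TPM. EPHB4 had 12.1 and 12.7 TPM, RYK 10.7 and 10.6 TPM, and EGFR was listed at 0. CD33 alone was on among 15 Siglecs, the sialic acid receptors, and held 95.8% of their TPM. SIGLEC10 came next at 0.4 and 0.371 TPM.

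The integrins, heterodimers that anchor cells to matrix and endothelium, had 8 of 18 alpha chains and 3 of 8 beta chains on. The alpha chains of the lymphocyte and monocyte integrins led, ITGA4 at 35.2 and 34.8 TPM and ITGAL at 33.5 and 34.3 TPM, ahead of the fibronectin receptor chain ITGA5 at 29.3 and 31.1 TPM. ITGB2, the beta chain of ITGAL, had 69.4 and 66.6 TPM, and ITGB1, the partner of ITGA4 and ITGA5, had 38.4 and 37.9 TPM. Of 10 Toll-like receptors, TLR2 (7.31 and 6.95 TPM) and its partners TLR6 (1.77 and 2.19 TPM) and TLR1 (1.24 and 1.25 TPM) were on, and TLR4 was low at 0.249 and 0.246 TPM. Among Fc gamma receptors, FCGR1A was followed by FCGR2A at 16.9 and 15.7 TPM and the neonatal receptor FCGRT at 14.2 and 14.5 TPM. FCGR2B and FCGR2C, at 0.808 and 1.17 TPM and at 1.35 and 0.957 TPM, are nearly identical over much of their sequence and share reads, so the division between them is uncertain. FCGR3A was listed at 0.

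Tetraspanins, membrane organizers, had 14 of 33 on, with CD63 at 78.8 and 80.7 TPM, CD81 at 40.8 and 39.3 TPM and CD53 at 37.4 and 35.6 TPM. Among 31 cytokine receptor chains 20 were on. IL6R was the highest at 50.8 and 47.6 TPM, while IL6ST, the signaling chain it works with, had 5.94 and 5.70 TPM. The GM-CSF receptor showed the same order, with the ligand-binding chain CSF2RA at 15.5 and 14.9 TPM and the shared signaling chain CSF2RB at 1.63 and 1.62 TPM. The interferon gamma receptor chains were closer to each other, IFNGR1 at 24.5 and 21.0 TPM and IFNGR2 at 20.4 and 19.4 TPM.

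HOX genes, which set position in the embryo and self-renewal in blood cells, were divided sharply by cluster. Of 39 HOX genes 10 (25.6%) were on, beside 53.6% of all protein-coding genes. By cluster, 8 of 11 were on in HOXA, 0 of 10 in HOXB, 2 of 9 in HOXC and 0 of 9 in HOXD. HOXA10 had 29.1 and 27.6 TPM and HOXA9 27.0 and 27.5 TPM, values that did not overlap but lay close together. HOXA13 had 12.3 and 11.7 TPM, HOXA11 9.32 and 9.09 TPM and HOXA5 5.56 and 5.11 TPM. HOXA7 stood at 3.36 and 4.04 TPM and overlapped HOXA6 at 3.25 and 3.36 TPM, and HOXA3 stood at 2.35 and 2.55 TPM. Low levels were measured for HOXA4 at 0.156 and 0.402 TPM and HOXA2 at 0.113 and 0.231 TPM. The 4 genes numbered 9 and above were thus the highest of the cluster.

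In HOXC, HOXC4 had 6.39 and 6.95 TPM and HOXC10 2.13 and 2.11 TPM, while HOXC6 was on in 1 library only, at 1.12 and 0.674 TPM. HOXB7, at 0.130 and 0.0596 TPM, was the highest of its cluster, and HOXB1, HOXB2, HOXB5 and HOXB8 were listed at 0. All 9 HOXD genes were listed at 0 in both libraries.

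**Figure D4:**
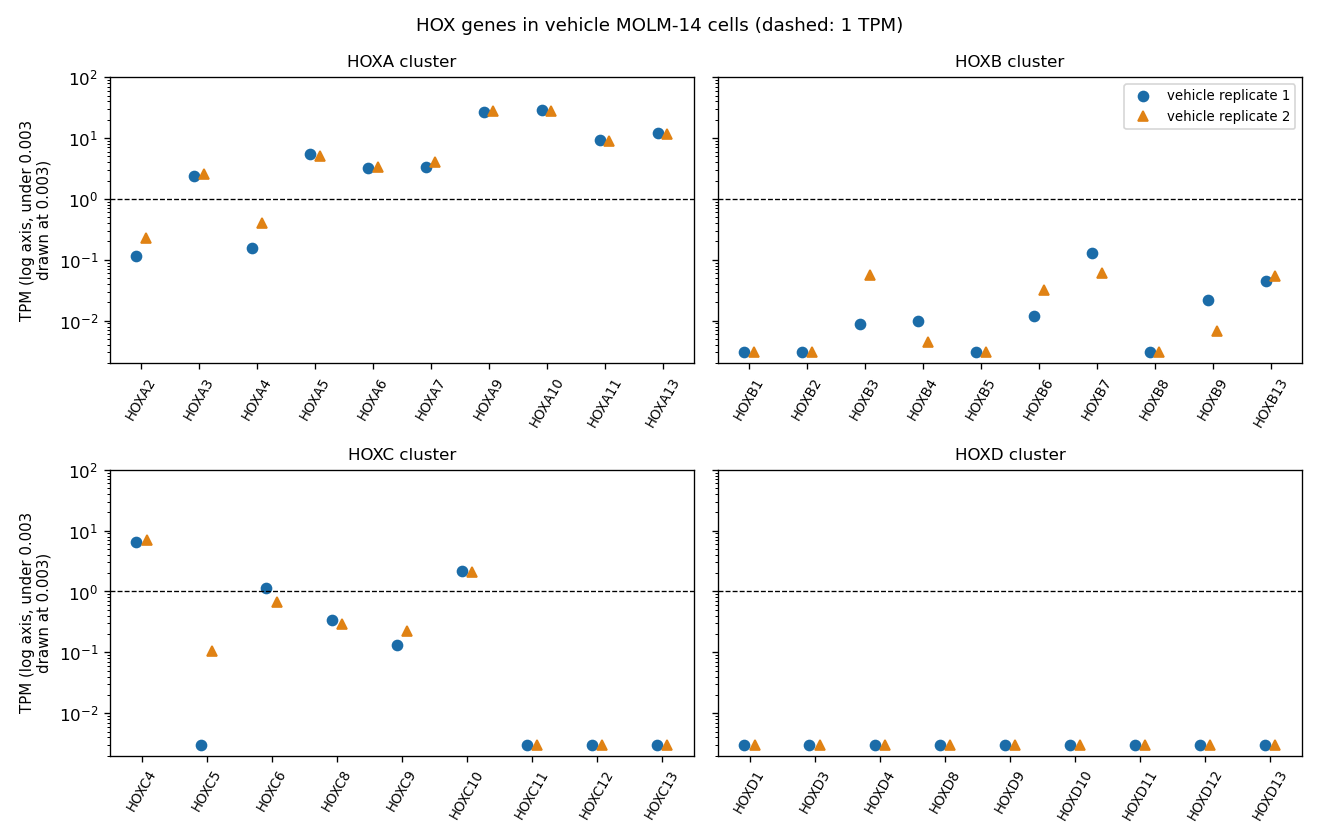
TPM (y axis, log scale) of HOX genes (x axis) in the 4 clusters, with circles for vehicle replicate 1, triangles for replicate 2 and a dashed line at 1 TPM. Values under 0.003 TPM, including 0, are drawn at 0.003. HOXA9 and HOXA10 lie highest, between 27.0 and 29.1 TPM, and all 9 HOXD genes lie at the floor.

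The TALE homeobox factors, which bind DNA beside HOX proteins, had 7 of 11 on. PBX3 was the highest at 31.8 and 35.0 TPM, MEIS1 had 26.2 and 28.1 TPM and MEIS2 25.2 and 23.2 TPM. PBX2 followed at 22.0 and 18.7 TPM, TGIF1 at 16.4 and 15.9 TPM, TGIF2 at 14.2 and 14.8 TPM and PKNOX1 at 10.0 and 9.59 TPM. PBX4, MEIS3 and PKNOX2 were off.

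Transcription factors in all comprised 252 different listed genes, of which 125 (49.6%) were on, set beside 53.6% of protein-coding genes. In several families 1 member held most of the TPM. CEBPA, which commits progenitors to the myeloid lineage, had 126 and 125 TPM and 59.1% of the summed TPM of the C/EBP list. That list counts CEBPZ (45.0 and 42.8 TPM, 20.7%), which bears the name without being of the same protein family. Of the rest, CEBPG (24.4 and 24.5 TPM) and the stress factor DDIT3 (14.5 and 13.4 TPM) came next. CEBPD had 2.47 and 2.83 TPM and CEBPB, which acts in mature monocytes, 1.88 and 1.72 TPM. CEBPE, needed for secondary granules, was low at 0.244 and 0.243 TPM.

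IRF8, a determinant of monocyte fate, had 194 and 183 TPM and held 75.5% of the TPM of its family. IRF3 followed at 24.3 and 23.5 TPM, IRF1 at 13.4 and 14.4 TPM, IRF2 at 7.74 and 7.40 TPM, IRF5 at 7.38 and 6.62 TPM, IRF7 at 5.03 and 4.71 TPM and IRF9 at 4.03 and 3.17 TPM. IRF4, of lymphocytes and dendritic cells, was off. MYC was measured at 199 and 187 TPM and held 61.7% of the summed TPM of the MYC and MXD network. Some of the other members, but not MLX, MLXIP and MLXIPL, compete for or share its partner MAX. MAX itself had 13.3 and 12.6 TPM, MGA 29.2 and 28.7 TPM, MXI1 24.8 and 24.7 TPM and MLX 23.4 and 22.9 TPM. MXD3 (7.30 and 6.83 TPM) overlapped MLXIP (7.26 and 6.58 TPM), and MXD4, MXD1 and MNT lay between 3.31 and 6.33 TPM. MYCL was near the threshold at 1.91 and 2.02 TPM, and MYCN, of neural tissue, and MLXIPL, of liver, were off.

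MYB, a factor of dividing progenitors, had 157 and 149 TPM, and its cell cycle relative MYBL2 had 65.8 and 59.8 TPM. MYBL1 was low at 0.734 and 0.699 TPM. MEF2C, a factor linked to MLL-rearranged leukemia, had 84.7 and 95.2 TPM, ahead of MEF2D at 37.3 and 36.8 TPM and MEF2A at 5.51 and 5.65 TPM. MEF2B was low at 0.165 and 0.128 TPM. In the Ikaros and GFI list IKZF1 had 59.7 and 58.8 TPM and GFI1, a repressor of granulocyte precursors, 45.4 and 43.9 TPM. GFI1B, its erythroid and megakaryocyte relative, stood at 0.109 and 0.0640 TPM. IKZF5 was on at 8.11 and 9.70 TPM, IKZF2 and IKZF4 lay on the threshold, and IKZF3 was low at 0.606 and 0.451 TPM.

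Of the ETS factors 17 of 28 were on. ELF1 was the highest at 79.6 and 80.4 TPM, ETS2 had 39.1 and 40.1 TPM, FLI1 37 and 35.1 TPM and SPI1 (PU.1), the factor most tied to myeloid identity, 27.0 and 27.6 TPM. ERG, a relative of FLI1 in stem cells, was off at 0.0463 and 0.0269 TPM. CBFB, the common partner of RUNX proteins, had 62.6 and 62.7 TPM. RUNX1 had 17.6 and 20.7 TPM, RUNX3 3.75 and 3.93 TPM and RUNX2 2.77 and 2.38 TPM. GATA2 was the sole GATA factor that was on, at 1.97 and 1.79 TPM, and GATA1, GATA3 and GATA6 were off, with GATA4 and GATA5 listed at 0.

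The E proteins TCF3 and TCF12 had 78.6 and 74.3 TPM and 44.1 and 40.8 TPM. Of their partners, LYL1 had 26.2 and 25.6 TPM, whereas its relative TAL1, of stem cells and erythroid cells, was off at 0.0240 and 0.00360 TPM. The bridging proteins LMO4, LMO2 and LDB1 had 40.5 and 38.0 TPM, 37.7 and 36.3 TPM, and 21.4 and 19.9 TPM. Among STAT factors 6 of 7 were on, with STAT6 at 40.9 and 40.4 TPM and STAT3 at 24.7 and 23.2 TPM. STAT2, STAT5A and STAT5B stood between 10.5 and 16 TPM, and STAT4, of lymphocytes, was low at 0.365 and 0.258 TPM.

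AP-1 factors, which respond quickly to signals, had 10 of 16 on. JUND had 48.5 and 47.9 TPM, JUNB 26.9 and 24.9 TPM and FOS 7.66 and 7.93 TPM, while JUN was low at 0.650 and 0.420 TPM and FOSB at 0.424 and 0.296 TPM. The early response factor EGR1 had 1.13 and 1.32 TPM, EGR2 and EGR3 were off and EGR4 was listed at 0. Of the orphan nuclear receptors of the NR4A family, which the study concerns, 1 of 3 was on. NR4A1 lay just above the threshold at 1.27 and 1.70 TPM and overlapped EGR1, NR4A2 was low at 0.544 and 0.418 TPM, and NR4A3 was off at 0.00492 and 0.00665 TPM.

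Factors of other tissues were mostly off. Of 9 PAX genes PAX5 was on, PAX6 lay on both sides of the threshold at 0.701 and 1.48 TPM and PAX3 was off, and the other 6 were listed at 0. Of 19 SOX genes 3 were on, SOX4 at 6.76 and 6.25 TPM, SOX12 at 2.54 and 2.44 TPM and SOX18 at 2.33 and 2.15 TPM. Apart from MGA, the T-box genes that were on were TBX20 at 1.62 and 2.14 TPM and TBX3 at 1.10 and 1.20 TPM. KLF13 at 13.2 and 12.2 TPM and KLF16 at 10.5 and 9.55 TPM led the KLF family, in which 10 of 17 were on and KLF4, of monocytes, had 2.01 and 2.06 TPM. SP3 had 42.8 and 40.7 TPM and SP1 23.3 and 23.1 TPM, with the other 7 SP genes at or below 2.61 TPM. FOXP1 had 16.6 and 14.9 TPM and FOXO3 11.5 and 9.86 TPM, and FOXP3, of regulatory T cells, and FOXO6 were off.

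Genes of the MLL fusion complex and chromatin regulators were nearly all on, at 25 of 29 (86.2%), beside 53.6% of all protein-coding genes. KMT2A had 8.47 and 8.51 TPM, counting fusion and intact transcripts together. Of its cofactors, MEN1 (menin) had 9.47 and 9.22 TPM and PSIP1 (LEDGF) 33.4 and 31.8 TPM. In the elongation complexes AFF1 had 32.7 and 34.2 TPM, the H3K79 methyltransferase DOT1L 16.2 and 16.4 TPM and MLLT1, the relative of MLLT3, 15.0 and 14.2 TPM. DNMT1, the maintenance DNA methyltransferase, led the list at 96.2 and 89.1 TPM, far above DNMT3B at 5.14 and 5.20 TPM and DNMT3A at 4.35 and 4.09 TPM. Of the demethylases TET3 had 5.33 and 5.28 TPM and TET2 3.91 and 4.07 TPM, and TET1 was low at 0.530 and 0.534 TPM. The polycomb methyltransferase EZH2 had 20.2 and 20.7 TPM and its relative EZH1 5.04 and 4.48 TPM. KDM1A, the demethylase LSD1, had 42.2 and 40.4 TPM.

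Lists of related genes showed which members had the most RNA in these cells. Some of these lists pool proteins with different roles, such as cyclins with CDKs. Over 207 different genes in such lists 124 (59.9%) were on, close to the 53.6% of all protein-coding genes. Of the SRC kinases LYN had 37.6 and 36.7 TPM, ahead of FYN at 6.58 and 6.77 TPM and YES1 at 6.42 and 5.30 TPM. SRC itself was low at 0.804 and 0.859 TPM, and LCK, of T cells, and BLK, of B cells, were at or below 0.103 TPM. BTK had 49.2 and 47.4 TPM, overlapping TYK2 at 53.6 and 49.0 TPM, and SYK had 27.4 and 27.1 TPM, while ZAP70, the T cell relative of SYK, was off at 0.0348 and 0 TPM. JAK1 had 19.4 and 19.7 TPM, JAK2 4.98 and 4.99 TPM and JAK3 1.68 and 1.54 TPM. The leukocyte form of PI3 kinase, PIK3CD, had 29 and 27.3 TPM, and PIK3CB, PIK3CG and PIK3CA lay between 8.79 and 13 TPM.

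In the cell cycle machinery CDK4 had 147 and 143 TPM, and CDK6, its paralog, 101 and 99.3 TPM, overlapping CDK1. Of the D cyclins CCND3 had 69.8 and 68.6 TPM, CCND2 38.3 and 39.0 TPM and CCND1 0.809 and 1.62 TPM. The CDK inhibitors CDKN2A and CDKN2B, neighbors on chromosome 9, were listed at 0 in both libraries. CDKN2C had 47.5 and 46.9 TPM, CDKN1A (p21) 37.4 and 35.7 TPM, CDKN1B (p27) 19.9 and 18.2 TPM and CDKN2D 5.66 and 6.11 TPM. CDKN1C was below 0.2 TPM.

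Of the survival proteins MCL1 had 51.5 and 48.4 TPM, BCL2 21.7 and 21.2 TPM and BCL2L1 6.05 and 5.72 TPM, and BCL2A1 lay on the threshold at 0.616 and 1.06 TPM. The effectors BAX and BAK1 had 29.2 and 28.9 TPM and 12.5 and 12.2 TPM, and of the BH3-only proteins BID had 40.0 and 41 TPM and BIK 35.5 and 32.7 TPM. Among 12 caspases 9 were on, led by the inflammatory CASP4 at 33.3 and 33.3 TPM. CASP1, the enzyme that activates interleukin-1 beta, had 22.2 and 19.9 TPM. CASP5 and CASP12 were listed at 0, and CASP14, of skin, was off.

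In glycolysis 1 isoenzyme usually dominated. LDHB had 712 and 697 TPM, above LDHA at 376 and 346 TPM. ALDOA had 621 and 605 TPM, against ALDOC at 4.07 and 3.21 TPM, and PKM had 255 and 254 TPM, with PKLR listed at 0. ENO1 had 1142 and 1122 TPM while ENO2, of neurons, was low. The hexokinases had lower levels, HK2 at 9.37 and 9.75 TPM and HK1 at 5.07 and 4.37 TPM. Of the glucose transporters SLC2A3 had 16.7 and 15.1 TPM and SLC2A1 12.4 and 11.9 TPM, though SLC2A3 shares reads with its close copy SLC2A14, at 1.42 and 0.895 TPM.

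In the cytoskeleton list ACTB was followed by ACTG1 at 1276 and 1199 TPM, TUBA1B at 1158 and 1117 TPM and TUBB at 665 and 629 TPM. VIM, the filament of blood and mesenchymal cells, had 197 and 190 TPM and DES, of muscle, was off. Of the cathepsins other than CTSG, CTSC, the enzyme that activates the granule proteases, had 117 and 116 TPM and CTSB 63.6 and 60.3 TPM. PTMA had 1499 and 1513 TPM, TMSB4X 1108 and 1063 TPM and S100A6 111 and 105 TPM. PRKCD was the highest protein kinase C at 19.9 and 18.4 TPM, followed by PRKCB at 15.0 and 15.7 TPM.

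Across whole families taken by symbol, the share of members that were on ran from all to none. Besides the ribosomal proteins, 46 of 47 genes of complex I (NDUF) and 38 of 40 proteasome subunits were on. Zinc finger genes named ZNF had 356 of 512 on (69.5%) with a median of 3.80 TPM, and ZBTB factors 34 of 41 (82.9%). Solute carriers lay close to the 53.6% of all protein-coding genes, with 175 of 370 on (47.3%). At the other end, 2 of 66 protocadherins, 3 of 50 keratins, 3 of 44 collagen chains, 2 of 24 claudins and 13 of 97 potassium channel genes were on. Of 41 chemokines of the CC and CXC groups 3 were on, CCL5 at 22.8 and 21.1 TPM, CCL28 at 8.17 and 8.03 TPM and CCL23 at 1.13 and 1.21 TPM.

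**Figure D5:**
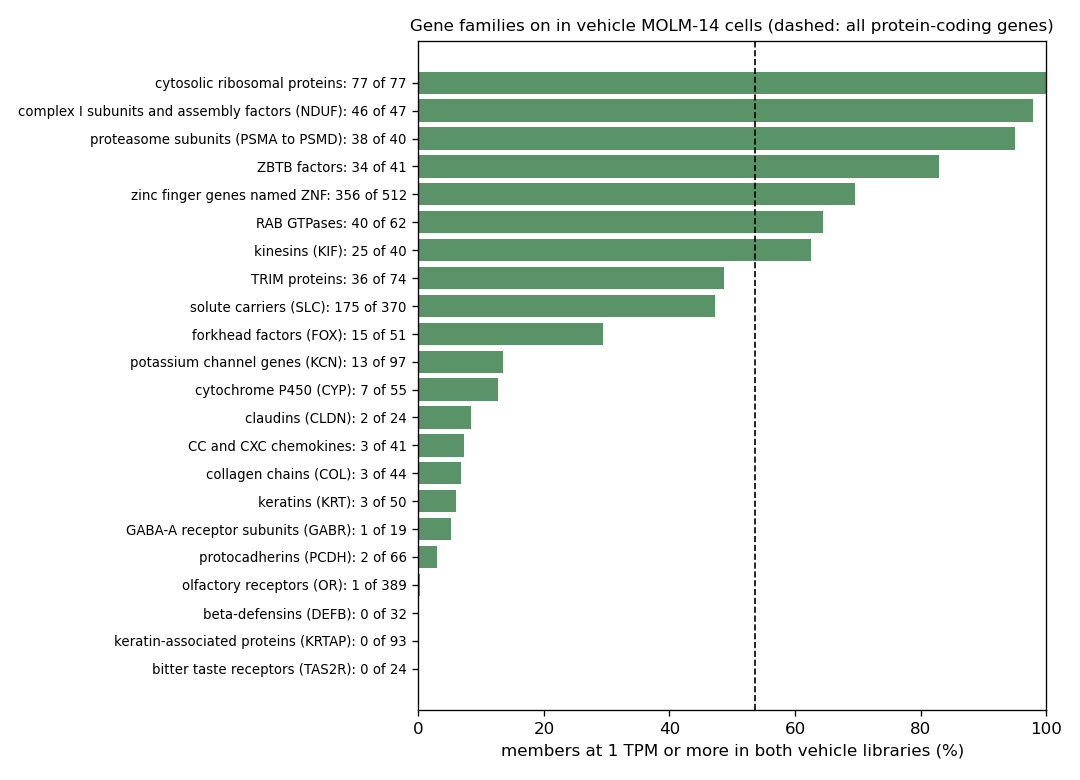
Share of members at 1 TPM or more in both vehicle libraries (x axis, %) for 22 gene families taken by symbol (y axis, with the number on of the number in the table). The dashed line is the 53.6% of all protein-coding genes, and the bars run from 77 of 77 ribosomal protein genes to 0 of 93 keratin-associated proteins.

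Sensory and skin families had next to no members on. Of 389 olfactory receptor genes 358 were off and 1 was on, OR4F17 at 1.42 and 1.19 TPM, a gene with close copies elsewhere in the genome. No bitter taste receptor (0 of 24), beta-defensin (0 of 32) or keratin-associated protein gene (0 of 93) was on. Of the beta-defensins 30 were off and of the keratin-associated proteins 91, but of the bitter taste receptors 11 were off and the others were low, with a median of 0.0929 TPM over the family. GABRA4, a subunit of the GABA-A receptor of neurons, had 15.2 and 14.5 TPM and was the only 1 of 19 subunits that was on. Of the potassium channel genes the highest was KCNAB2 at 45.9 and 45.9 TPM, followed by KCNN2 at 16.5 and 16.9 TPM and KCNN4 at 14.2 and 15.1 TPM.

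Of 18 listed genes from those that the study names, 17 were on, beside 53.6% of all protein-coding genes. The list does not hold every gene that the study names. Besides MYC, IRF8, MYB, CDK6 and MEF2D above, B2M, the light chain of HLA class I, had 845 and 818 TPM. UBAC2 had 51.7 and 51.1 TPM, ATP8B4, a phospholipid flippase, 40.1 and 41.9 TPM, and P2RY2, a receptor for extracellular ATP, 33.1 and 32.9 TPM. The Mediator subunit MED1 had 21.9 and 21.7 TPM and the acetyltransferase EP300 16.2 and 14.5 TPM. PECAM1 had 19.4 and 15.8 TPM, ETV6 15.4 and 13.9 TPM and the adaptor GRAP 5.71 and 5.55 TPM. NR4A3 was the 1 gene of the list that was off.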

How the data were processed

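Total RNA of MOLM-14 cells was depleted of ribosomal RNA by the authors and made into strand-marked libraries with ERCC controls. Reads were trimmed with Trim Galore and quantified with Salmon 0.11.0 against Gencode transcripts, and the TPM were deposited by the authors per gene symbol, summing to about 1000000 in each library. The TPM columns of the 2 vehicle libraries were used as deposited. The table also holds the authors' DESeq2 log2 fold changes and p-values for DHE against vehicle and NR4A1 against GFP RNA, which were not used. TPM keep no read counts, so depth and counting error are unknown, and precision rests on the 2 values. No test was made, since there was no contrast.

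Biotypes came from Gencode and RefSeq symbols and synonyms (28904 of 57964 entries matched; the unmatched entries held 2.28% of the TPM). The highest entry stood for a repeated symbol (1449 repeats). Start windows came from RefSeq (GRCh38.p14), matched by symbol, with the first listed start for each gene. All steps ran under Python 3.11.15 with pandas 2.3.3, and the calling steps were tested on simulated data.

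The 67 lists (873 genes found in the table, and 1 more that was not) and the 22 families were written from general knowledge. Members and lists were chosen with earlier results of these data known. The HLA lists and the families were added after the data were examined. By rule, genes named were the 30 most abundant entries and protein-coding genes, and the first and the 6 highest members of each list. The rule also took all members of families of up to 13, and the listed genes from those the study names. Last came the 10 of at least 10 TPM that differed most between the libraries. Y-linked genes and XIST were left out. Other genes, such as those that stand out in a family or define a cell type, were chosen after their values were seen, and not every gene the rule admits is reported here. Alternatives were single libraries, other thresholds, TPM rescaled to protein-coding genes, other pseudocounts and other treatment of repeated symbols.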

Additional observations from a re-analysis of the deposited data

How the results depend on the processing

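No paired analysis was possible because the 2 vehicle libraries form 1 group and no result comes from a test. With 1 library left out, protein-coding genes on numbered 10293 to 10305, beside 10198 with both. Rescaling the TPM to nuclear protein-coding genes multiplied replicates 1 and 2 by 1.81 and 1.86 and gave 10728 genes on. It also set ribosomal proteins at 32.1% and histones at 7.23%, shares of a smaller total by construction. Thresholds of 0.5 and 5 TPM gave 10790 and 7877 genes on. The listed lineage genes that were on numbered 50, and 34 at 5 TPM; surface genes 84 and 56; factors and chromatin genes 150 and 105; family members 124 and 99. Among 67 lists the number on changed by over 1.5 times in 26 at 5 TPM, in 7 at 0.5 TPM, in 7 after rescaling, in 2 with the mean of both libraries, and in 1 with either library alone. Of 873 listed genes 17 were on in 1 library only, among them CCND1, CD163, CLEC12A and PAX6. The median difference between libraries was 0.00947 on the log2 scale without a filter, where most entries lie near 0, and 0.06 to 0.08 under the other settings. Counting a start run at any annotated start, an alternative chosen after seeing the data, gave 46 ribosomal protein genes in place of 42.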

Other observations

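HLA genes divided by class. In a list of 7 genes, the class I genes together with B2M, 5 were on, with HLA-B at 110 and 116 TPM, HLA-E at 54.4 and 53.3 TPM and HLA-C at 52.6 and 51.4 TPM. Of 15 class II genes, with the invariant chain and the class II activator, 4 were on. The share over all protein-coding genes was 53.6%. HLA-DRA had 1.66 and 1.56 TPM and HLA-DRB1 was low at 0.512 and 0.611 TPM, as was the activator CIITA at 0.491 and 0.564 TPM. The invariant chain CD74 had 42.2 and 40.7 TPM and so held 80.5% of the TPM of the list. HLA alleles differ from the reference transcripts, and the effect of that on these values was not tested.

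Mitochondrial mRNAs, which are cut from long precursors, were uneven among themselves. MT-CO3 had 1100 and 1017 TPM, MT-CO1 713 and 669 TPM and MT-CO2 602 and 562 TPM, while MT-ND5 had 25.7 and 26.7 TPM and MT-ND6, the mRNA of the other strand, 10.9 and 16.1 TPM.

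Among entries of at least 10 TPM, 2 of 5838 protein-coding genes and 40 of 458 other entries differed by more than 1.5-fold between the libraries. The protein-coding genes were RPS16, at 950 and 607 TPM, and FAM98A, at 17.3 and 11 TPM. The largest difference was that of CH507-513H4.6, at 663 and 146 TPM, followed by the microRNA genes MIR6774 (14.2 and 41.6 TPM) and MIR3153 (14.1 and 38.9 TPM) and by RF00100 (219 and 88.5 TPM). RNA5-8SN3, a 5.8S ribosomal RNA entry, had 8971 and 5780 TPM.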
